A study of Mus musculus with 18 samples.

Results

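The guanylate-binding proteins (GBPs) were followed through all 18 adipose RNA libraries of the study. The family was taken by gene symbol, and its 10 members, Gbp2b, Gbp2, Gbp3, Gbp4, Gbp5, Gbp6, Gbp7, Gbp8, Gbp9 and Gbp10, are 10 of the 25124 genes in the count table of each depot. They were chosen for the values they show in these libraries, an on-off pattern of Gbp2b against the other 9 genes (its paralogs) and a high level in 1 wildtype library of epididymal fat. The values that compare the genotypes are therefore given for the members as a description, without p-values, and counts of members past the rule for calling genes stand only beside the share of all genes past it.

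RNA came from inguinal white fat (iWAT), epididymal white fat (eWAT) and brown fat (BAT) of male mice, either wildtype (WT) or lacking caspase-6 in the whole body (C6KO). All mice were on the C57BL/6J background, came from breeding heterozygous animals, and had a high-fat diet with 60% of its energy from fat for 12 weeks, begun at 10 to 14 weeks of age, with a fast of 10 h before the tissue was taken. Each genotype and depot had 3 libraries, whose totals ran from 16506034 to 19043523 counts for iWAT, from 16717201 to 19139694 for eWAT and from 7803108 to 12428683 for BAT. The labels do not say whether libraries with the same number in different depots came from 1 animal, and p-values measure the spread between these libraries. No group without high-fat feeding and no adipocyte-specific deletion is included, and the knockout is 1 line.

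Casp6, the targeted gene, had 289 to 342 counts in the WT and 99 to 141 in the C6KO libraries of iWAT. For eWAT the ranges were 322 to 422 against 74 to 124, and for BAT 127 to 145 against 26 to 71. The groups did not overlap in any depot, so the genotype labels hold for all 18 libraries, and the eWAT library WT-2 had the highest Casp6 count of all, 422. With 3 libraries a group, edgeR called Casp6 lower in eWAT only (log2 fold change -1.85, adjusted p = 0.0132), and not in iWAT (-1.51, adjusted p = 0.0751) or BAT (-1.50, adjusted p = 0.0671). Adipocyte markers summed to at least 8408 CPM (counts relative to the normalized total of the library) in every library, and the brown adipocyte markers to 6505 to 15967 CPM in BAT but at most 60.3 CPM in iWAT and 16.3 CPM in eWAT.

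GBPs are large GTPases that interferon-gamma induces in many cell types, in part through the transcription factor IRF1. The proteins gather on the vacuoles of intracellular bacteria and parasites and on bacteria in the cytosol, with help from the ubiquitin-like conjugation system of autophagy, and promote inflammasome activation. Some members, Gbp2 and Gbp5 among them, end in a motif that receives a lipid anchor. In fat, as in other tissues, macrophages, endothelial cells and adipocytes can all respond to interferon-gamma, and a bulk library does not tell these sources apart.

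The mouse genes form 2 clusters. In mm10, Gbp5, Gbp7, Gbp3, Gbp2b and Gbp2 lie in this order on the plus strand of chromosome 3, between Gbp5 at chr3:142496934-142522344 and Gbp2 at chr3:142620663-142638008, with Gbp2b at chr3:142594847-142619176. Casp6 lies on the same chromosome, at chr3:129901415-129914112, and the distance to the 5 genes is 12.6 to 12.7 Mb. Gbp8, Gbp9, Gbp4, Gbp10 and Gbp6 lie on the minus strand of chromosome 5, between Gbp8 at chr5:105014153-105053561 and Gbp6 at chr5:105270702-105293699.

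Gbp2b and Gbp2 are neighbours, transcribed in the same direction, and the sequence before their start sites is shown because these 2 genes went opposite ways between the genotypes. The sequences are RefSeq promoter windows of GRCm38.p6 (the mm10 build), plus strand, 5′ to 3′. Capitals mark the letters of the interferon-stimulated response element (ISRE), searched as GAAA, any 2 letters and GAAA again, or in reverse as TTTC, any 2 letters and TTTC.
Gbp2b, chr3:142594597-142594815: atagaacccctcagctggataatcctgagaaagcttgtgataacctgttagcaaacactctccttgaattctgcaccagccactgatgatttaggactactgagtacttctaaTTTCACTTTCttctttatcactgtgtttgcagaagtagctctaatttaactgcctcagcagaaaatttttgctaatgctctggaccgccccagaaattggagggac
Gbp2, chr3:142620413-142620662: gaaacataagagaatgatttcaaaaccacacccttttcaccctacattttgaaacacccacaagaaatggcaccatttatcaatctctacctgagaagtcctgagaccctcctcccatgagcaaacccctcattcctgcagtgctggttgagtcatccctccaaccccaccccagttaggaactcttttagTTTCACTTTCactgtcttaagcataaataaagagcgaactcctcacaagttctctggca

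Both stretches hold the same 10 letters, TTTCACTTTC, once. They end 128 bases before the listed start of Gbp2b and 50 bases before that of Gbp2. The other members on chromosome 3 hold the motif too, Gbp3 as 2 overlapping matches, and 30 bases around it are shown for comparison.
Gbp5, chr3:142496759-142496788: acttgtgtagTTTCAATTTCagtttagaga
Gbp7, chr3:142530273-142530302: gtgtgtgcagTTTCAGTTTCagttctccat
Gbp3, chr3:142559989-142560018: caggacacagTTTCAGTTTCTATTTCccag

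All 5 members with a window of 300 bases (250 before and 50 after the start) had an ISRE match on at least 1 strand, against 3.44% of all 32851 windows. On the strand of the gene alone, 0 of the 5 had one. The letters TTCNNNGAA of the interferon-gamma activated site (GAS) were found for Gbp5 and Gbp7, 2 of the 5, against 8.3% of all windows. These are matches of letters and not measured binding sites.

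Gbp2b was nearly silent in most WT libraries and present in every C6KO library. Its counts in WT iWAT were 2, 89 and 23, and in C6KO iWAT 733, 941 and 1000. BAT had 3, 0 and 4 Gbp2b counts in WT against 248, 417 and 379 in C6KO, and eWAT had 18, 1066 and 17 against 770, 816 and 793. The groups did not overlap in iWAT and BAT. In eWAT, WT-2 lay above every C6KO library, while WT-1 and WT-3 lay below them.

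In CPM, normalized by TMM (trimmed mean of M-values), Gbp2b was at 2.23 ± 2.71 (SD, n = 3) in WT and 50.03 ± 8.25 in C6KO iWAT. The edgeR estimate was a log2 fold change of 4.49 (SE 0.815), 22.5-fold. Each SE of a log2 fold change or difference is its size divided by the square root of edgeR's F statistic. For the members it therefore carries the test of the contrast they were chosen on, and nothing is read from it there. In BAT the levels were 0.293 ± 0.254 and 36.6 ± 4.52 CPM, with a log2 fold change of 7.03 (SE 0.542). The BAT WT group held 7 Gbp2b counts in all against 1044 in C6KO, a ratio per total count of 139 with an exact 95% interval of 67.2 to 346, which covers counting error only. The 0 counts of BAT WT-2 allow a level of up to 0.281 CPM, the worth of 3 counts.

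In eWAT the C6KO libraries lay within 39.995 to 41.8 CPM, while WT had 0.974, 52.4 and 0.898 CPM. The mean of WT was 18.1 ± 29.7 CPM, and the log2 fold change was 1.17 (SE 1.55). Without WT-2 it was 5.45 (SE 0.185), 43.8-fold. In the same way, iWAT WT-2 had the most Gbp2b of the iWAT WT libraries, and the log2 fold change of iWAT was 6.12 without it.

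**Figure D1:**
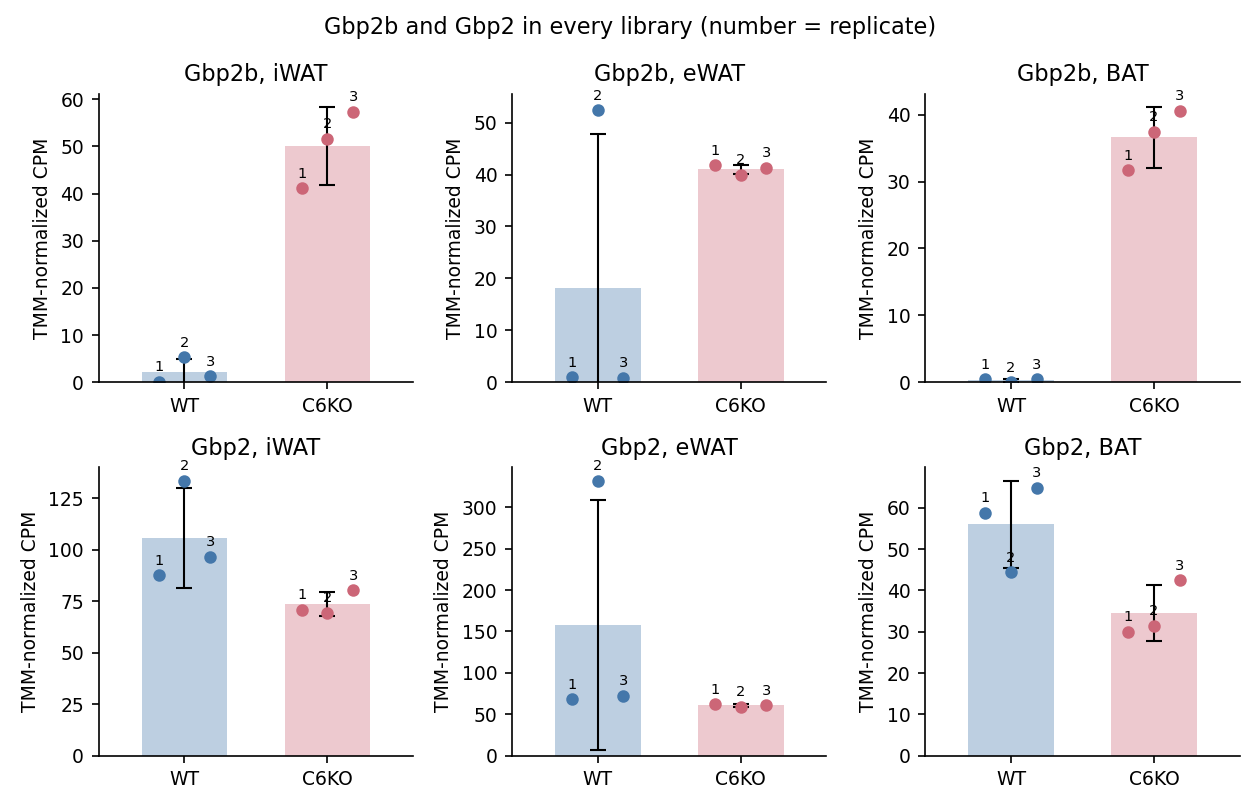
TMM-normalized CPM (vertical axes) of Gbp2b (top) and Gbp2 (bottom) in each library of the 3 depots, WT in blue and C6KO in red. Points are libraries with their replicate number, bars are means and whiskers are SDs (n = 3), clipped at 0. The C6KO libraries lie above WT for Gbp2b, except that eWAT WT-2 reaches 52.4 CPM, and below WT for Gbp2.

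Gbp2 had the highest level per length of the 10 genes in 5 of the 6 groups, and was lower in C6KO in every depot. WT iWAT had 1479, 2245 and 1723 Gbp2 counts, and C6KO iWAT 1266, 1263 and 1401. For eWAT the counts were 1257, 6751 and 1369 against 1148, 1204 and 1176, and for BAT 403, 475 and 589 against 235, 350 and 396. In CPM, every C6KO library lay below every WT library of its depot.

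Gbp2 had a log2 fold change of -0.52 (SE 0.163) in iWAT, -0.68 (SE 0.192) in BAT and -1.37 (SE 0.743) in eWAT. Without WT-2 the value in eWAT was -0.20 (SE 0.114), and the remaining WT levels of 68.0 and 72.3 CPM still lay above the C6KO range of 59.0 to 62.3 CPM. The Gbp2 gene overlaps Mir6381 on the opposite strand, and whether the counting used strand is not given in the sources used here.

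Set against Gbp2 within the same library, Gbp2b separated the genotypes in all 18 libraries. Per length, Gbp2b was at 0.118%, 3.45% and 1.16% of Gbp2 in iWAT WT and at 50.4%, 64.8% and 62.1% in iWAT C6KO. In BAT it was at 0.648%, 0% and 0.591% in WT and at 91.8%, 104% and 83.3% in C6KO. In eWAT the WT libraries had 1.25%, 13.7% and 1.08%.

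The eWAT C6KO libraries had 58.4%, 59.0% and 58.7%, a spread of 0.305 (SD, n = 3). The ratio of eWAT WT-2 was thus above the other WT libraries and far below the C6KO libraries, although its Gbp2b level was the highest of the 6 eWAT libraries. As a share of the counts of both genes, Gbp2b was 13.6% in eWAT WT-2, against 40.1 to 40.4% in eWAT C6KO. The exact 95% interval of the WT-2 share, 12.9 to 14.4%, covers counting error only and not the spread between libraries. These ratios describe the pattern the family was chosen on and are not a test of it.

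**Figure D2:**
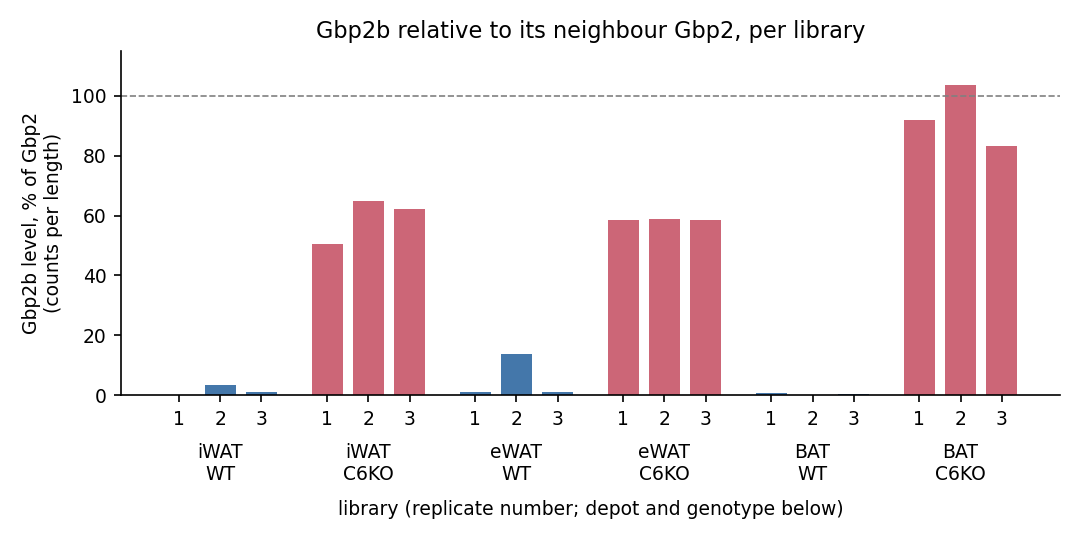
Gbp2b level as a percentage of the Gbp2 level (counts per transcript length, vertical axis) in each of the 18 libraries, grouped by depot and genotype, WT in blue and C6KO in red. The dashed line marks equal levels. WT libraries reach at most 13.7%, in eWAT WT-2, and C6KO libraries start at 50.4%.

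The order of the members by level per length changed with the genotype mainly through Gbp2b. In WT it held rank 8 in iWAT and eWAT and rank 10 in BAT. In C6KO it held rank 2 in iWAT, at 17.8 ± 2.94 CPM per kb (SD, n = 3), and rank 2 in eWAT, at 14.6 ± 0.325. In BAT of C6KO mice it held rank 4, at 13.04 ± 1.61 CPM per kb, and its range overlapped those of both its neighbours in the order, Gbp4 and Gbp9.

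In the eWAT C6KO libraries, Gbp2 and Gbp2b each lay apart from the next gene, and Gbp9, Gbp7, Gbp3 and Gbp4 followed with overlapping ranges between 6.06 and 10.5 CPM per kb. Gbp5 and Gbp6 were lower, and Gbp8 and Gbp10 were under 2 CPM per kb there. In eWAT WT all 9 neighbouring pairs in the order overlapped. Gbp2b made up 8.93 to 15.2% of all counts of the family in C6KO and 0 to 1.09% in the WT libraries other than eWAT WT-2, where it made up 5.52%.

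The paralogs had log2 fold changes of both signs in iWAT, from -1.25 (Gbp10) to 0.39 (Gbp4), and in BAT, from -0.68 (Gbp2) to 0.48 (Gbp7). In iWAT all 10 members passed the filter on low counts, and 0 of them were called by edgeR's quasi-likelihood test (adjusted p below 0.05 and at least 1.5-fold), where 0.00688% of all 14533 genes were called higher and 0.0206% lower. In BAT 8 passed, and Gbp2b was the only one called, higher, where 0.169% of 13595 genes were called higher and 1.07% lower. In eWAT all 10 passed and 0 were called, where 0.537% of 14889 genes were called higher and 0.208% lower. Scaled by library totals alone, eWAT had 39 genes called higher and 28 lower, against 80 and 31 with TMM. These counts come from the contrast the family was chosen on, and nothing is read from them.

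Groups did not overlap for Gbp2b and Gbp2 in iWAT, for Gbp2 in eWAT, and for Gbp2b, Gbp2 and Gbp8 in BAT, where Gbp8 had at most 30 counts and did not pass the filter. Over all genes tested, the C6KO libraries lay wholly above WT for 10.9% (iWAT), 11.6% (eWAT) and 7.44% (BAT), and wholly below for 12.3%, 11.6% and 12.4%.

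The median log2 fold change of the 9 paralogs in iWAT was -0.13, with 4 above 0, beside 0.03 over all genes. In BAT it was 0.22 over the 7 that passed the filter, with 5 above 0, beside -0.03 over all genes. In eWAT all 9 were below 0, with a median of -1.11 beside -0.01 over all genes. Without WT-2 that median was 0.02, and 4 of the 9 were below 0.

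Gbp5, which promotes assembly of the NLRP3 inflammasome, had 262, 1166 and 343 counts in the WT libraries of eWAT and 246, 284 and 275 in C6KO. Its log2 fold change was -1.11 with and -0.21 without WT-2. Gbp3, next to Gbp2b on chromosome 3, had 434, 1682 and 502 against 370, 423 and 475 counts. Gbp7 had 795, 2289 and 893 against 1085, 847 and 937. For all 3 genes WT-2 lay above the other 5 libraries, whose 2 genotypes overlapped.

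On chromosome 5, Gbp6 had 208, 1482 and 184 counts in WT eWAT and 216, 195 and 204 in C6KO. Gbp10 had 20, 569 and 22 against 20, 26 and 27, and its log2 fold change was -3.01 with and 0.17 without WT-2. Gbp8 had 55, 364 and 80 against 24, 27 and 81. Gbp4 had 459, 1938 and 618 against 707, 556 and 681, and Gbp9, with the smallest shift, 930, 2012 and 1007 against 990, 982 and 1041.

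Gbp6 and Gbp10 could not be told apart fully. Of the stretches of 50 bases in the Gbp6 transcript, 70.3% occurred in another Gbp transcript, and of those in Gbp10, 73.9%. The Gbp6 transcript compared had 2604 bases and the counted one 4303, so part of the latter was not examined. The share was 21.2% for Gbp8, 12.8% for Gbp4 and 9.56% for Gbp9. The counts of these genes may miss reads from shared stretches or hold reads of a paralog, and which of these occurred was not tested. The share was 1.84% for Gbp2b and 2.07% for Gbp2.

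**Figure D3:**
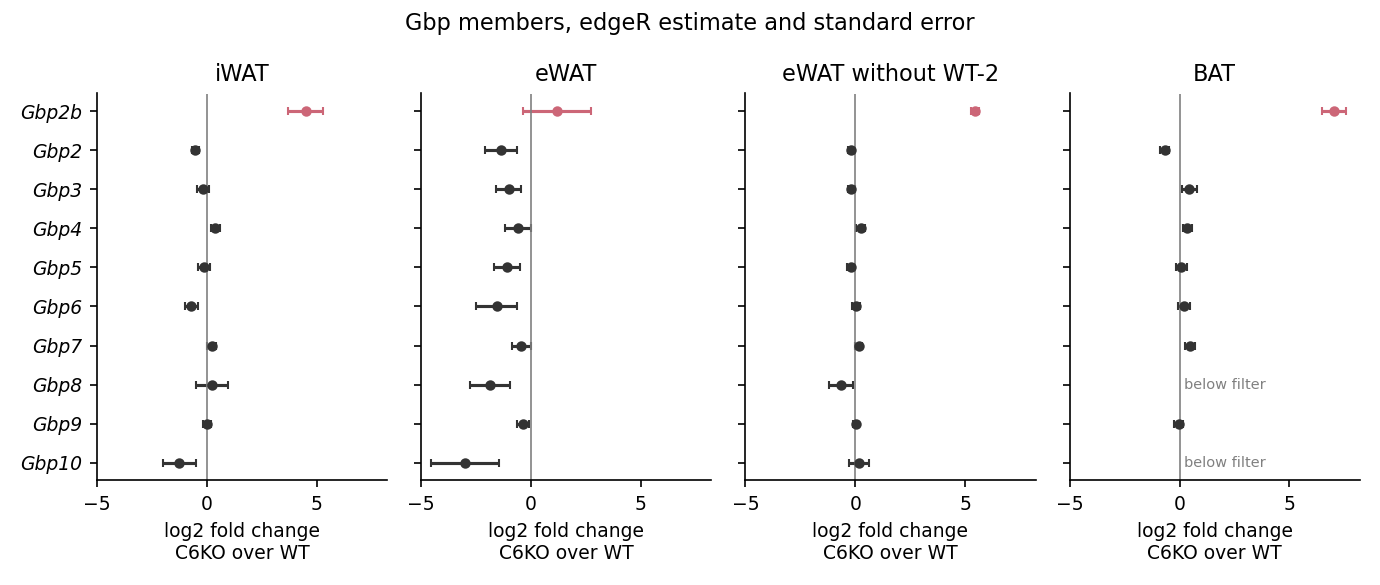
The log2 fold change of C6KO over WT (horizontal axis) of each member (rows) in iWAT, in eWAT with and without the library WT-2, and in BAT. Points are edgeR estimates, and Gbp2b is in red. Bars are standard errors worked back from edgeR's F statistic (3 against 3 libraries, 2 WT libraries where WT-2 is left out). Leaving out WT-2 moves the eWAT paralogs from a median of -1.11 to 0.02 and Gbp2b from 1.17 to 5.45.

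The library eWAT WT-2 held more RNA of every member than the other 2 WT libraries of eWAT. Gbp2b was 56.0-fold higher than their mean, at 1066 against 18 and 17 counts. Gbp10 was 24.9-fold and Gbp6 6.95-fold higher. The smallest difference was that of Gbp9, 1.91-fold. Counted on the log2(CPM + 1) scale, which lowers the fold of genes with few counts, 8 of the 9 paralogs were at least 2-fold higher, against 1.12% of all 14889 genes. This is 1 library, and it has no test.

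In the other libraries at most 2 paralogs were 2-fold above the mean of the other 2 libraries of the group on that scale, and in the C6KO libraries at most 1. In iWAT WT-2, Gbp2b was 7.52-fold higher, with 89 counts, and the paralogs were 1.12-fold to 4.08-fold higher. In BAT WT-2, Gbp10 with 64 counts and Gbp8 with 30 were 5.94-fold and 5.67-fold higher, where 6.36% of all genes were at least 2-fold higher, and the other 7 paralogs were below the mean of the other 2 WT libraries, at 0.699-fold to 0.932-fold.

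**Figure D4:**
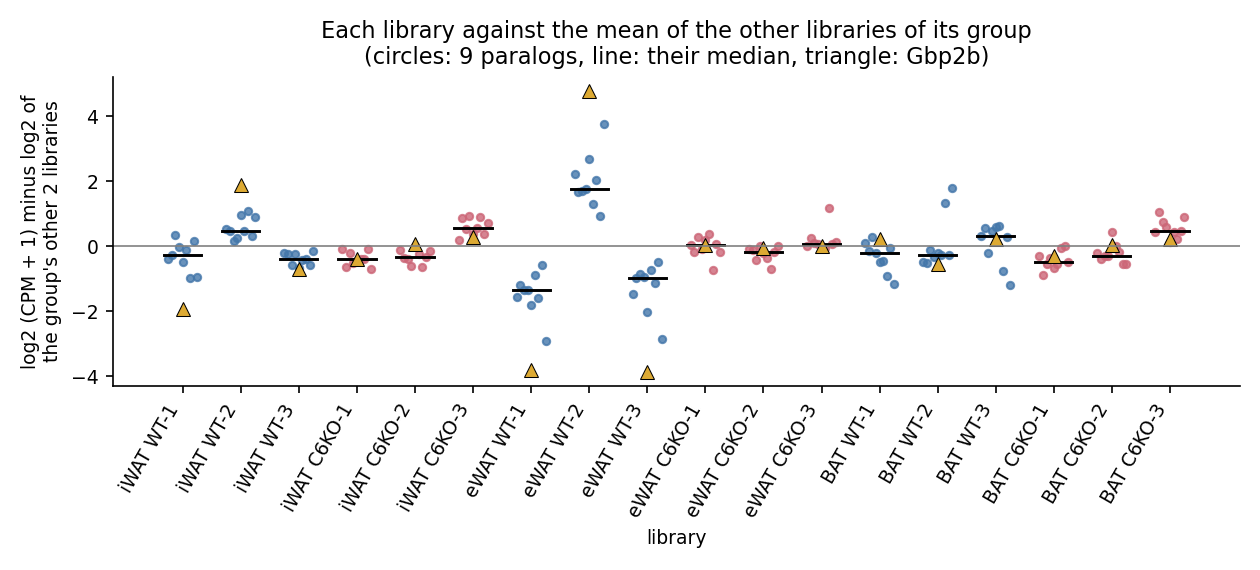
Log2(CPM + 1) of each member in each library minus that of the mean of the other 2 libraries of its group (vertical axis). Circles are the 9 paralogs (blue WT, red C6KO), lines are their medians and triangles are Gbp2b. The eWAT WT-2 paralogs have a median of 1.77 and Gbp2b is at 4.79, and the eWAT libraries WT-1 and WT-3 lie low because WT-2 enters the mean they are set against.

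Genes that respond to interferon-gamma were high in the same library. Ifng itself had 5, 25 and 7 counts in the WT and 0, 1 and 5 in the C6KO libraries of eWAT. In iWAT it had 0, 5 and 0 against 0, 0 and 2, and in BAT 0 in every library. Ifng did not pass the filter in any depot.

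Irf1 was at 47.0, 136 and 60.6 CPM in WT and 45.6 to 69.0 CPM in C6KO eWAT. Cxcl9, a chemokine that draws T cells and is induced by interferon-gamma, was at 38.4, 306 and 31.9 against 32.7 to 44.0 CPM, so that WT-2 was 8.69-fold above the other 2 WT libraries.

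In eWAT WT-2, 1.12% of all 14889 genes were at least 2-fold higher on the log2(CPM + 1) scale. Of the 62 genes tested from the interferon pathway list, 13 were. They included 7 of 18 interferon-gamma effector genes, 4 of 7 transcription regulators and 1 of 19 type I interferon genes. Among the 4 receptor genes and the 5 inhibitors there were 0 on this scale. A list of 11 further interferon-induced GTPases holds Gbp11, a Gbp gene that is not among the 10 members and lies 29327 bases from the cluster on chromosome 5. Of these 11, 9 were at least 2-fold higher, led by Iigp1, a GTPase of the same vacuolar defence, at 9.88-fold, which was named after its values were seen. The 7 inflammasome partners, 9 autophagy conjugation genes and 5 prenylation enzymes had 0.

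**Figure D5:**
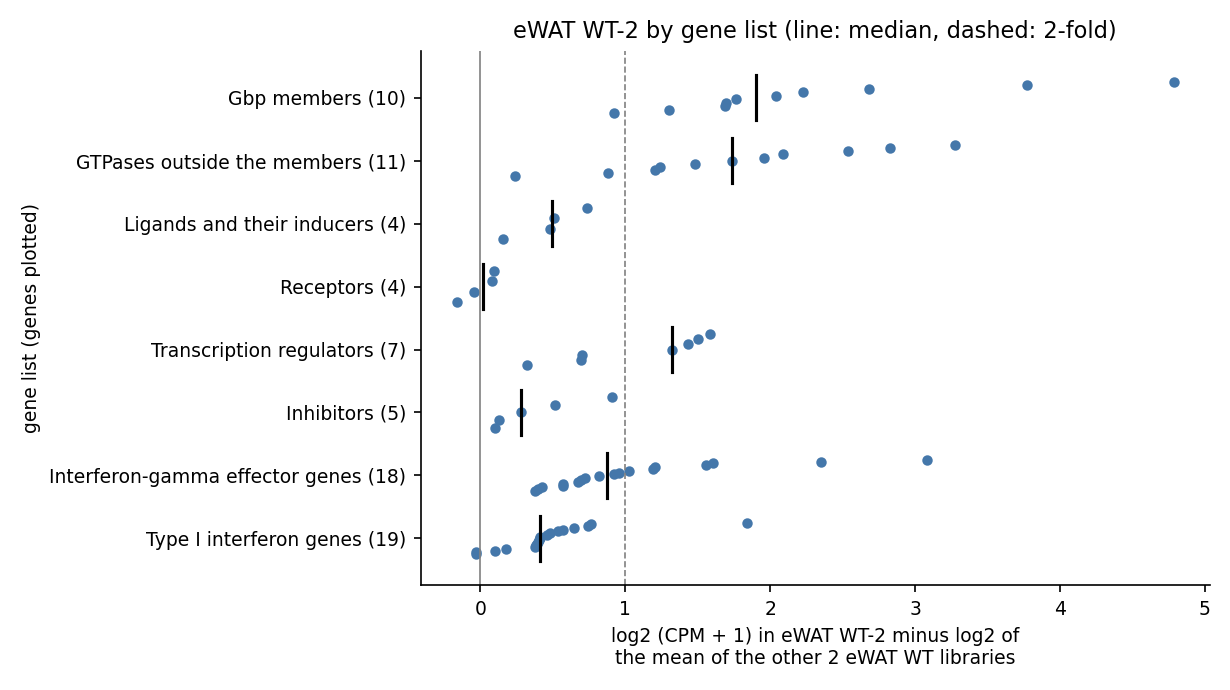
Log2(CPM + 1) in eWAT WT-2 minus that of the mean of the other 2 eWAT WT libraries (horizontal axis), 1 point per gene passing the filter, by gene list (rows). Lines are medians and the dashed line marks 2-fold. The Gbp members and the GTPases lie highest, and the 4 receptor genes have a median of 0.02.

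Markers of T and NK cells, which make interferon-gamma, summed to 31.8, 110 and 45.8 CPM in the WT libraries of eWAT and 13.8 to 50.8 CPM in C6KO. All 9 markers were detected in every eWAT library. Macrophage markers summed to 6479, 8071 and 6340 CPM in WT and 3945 to 5269 CPM in C6KO, and B cell markers to 10.01, 46.2 and 117 CPM in WT. In BAT WT-2 the T and NK cell markers summed to 44.9 CPM, against 5.55 and 10.6 CPM in the other WT libraries, and the skeletal muscle markers to 22971 CPM, against 28.6 and 1126 CPM. The part of these cells in the Gbp values was not tested, and fewer cells of a type and less RNA per cell cannot be told apart in bulk tissue.

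Between the genotypes, the interferon pathway was tested in the same fits, with p-values adjusted over all genes. EdgeR called 0 of the 62 pathway genes tested in iWAT, 0 of 62 in eWAT and 0 of 58 in BAT. At an unadjusted p below 0.05, iWAT had 2 higher and 4 lower genes, eWAT 1 and 13, and BAT 0 and 7. DESeq2 called none higher, and called 3 lower in iWAT (Fcgr1, Irf8, Oas3), 2 for eWAT (Fcgr1, Il27) and 3 for BAT (B2m, Fcgr1, Irf8), all named after their values were seen. Over all genes, DESeq2 called 169 higher and 505 lower for iWAT. These counts were 429 and 189 for eWAT, and 156 and 389 for BAT. The share of all genes at an unadjusted p below 0.05 is not given here. Nothing is therefore read from unadjusted counts, for this list or for the lists below. Fcgr1, an antibody receptor, and Irf8, a transcription factor, are both made by macrophages.

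The pathway had a median log2 fold change of -0.14 for iWAT, -0.23 for BAT and -0.37 for eWAT, the last being -0.13 without WT-2. Irf1 had log2 fold changes of 0.15, -0.54 and -0.10 in iWAT, eWAT and BAT, and Cxcl9 of -0.00, -1.72 and -0.42. Their adjusted p in edgeR was between 0.364 and 0.995, and neither gene passed the test in a depot.

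Among the further GTPases, Gbp11 included, 0 of 11 (iWAT), 0 of 11 (eWAT) and 0 of 10 (BAT) were called by edgeR, with 2, 1 and 0 at an unadjusted p below 0.05. DESeq2 called only Mx1, as lower for iWAT and for eWAT, where it called 505 and 189 of all genes lower. The median log2 fold change of these GTPases in eWAT was -1.30 with WT-2 and -0.18 without it. For the Gbp paralogs the values were -1.11 and 0.02. Macrophage markers were lower in C6KO: all 8 had negative log2 fold changes in each depot, and edgeR called 1 of them lower for eWAT, 3 for BAT and 0 for iWAT. Their sums in iWAT were 1911 to 2196 CPM in WT against 478 to 1438 CPM in C6KO, and in BAT 796 to 1084 against 325 to 498 CPM. Their part in the Gbp values was not tested.

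Of the proteins that act with GBPs, the inflammasome partners had median log2 fold changes of -0.88, -0.61 and -1.13 in iWAT, eWAT and BAT, with every tested gene below 0. By edgeR 0 of 6, 0 of 7 and 0 of 6 were called, with 4, 5 and 3 lower at an unadjusted p below 0.05. DESeq2 called 2, 4 and 1 of them lower, Pycard and Casp1 in iWAT, Aim2, Casp1, Gsdmd and Nlrp3 in eWAT, and Pycard in BAT, named after their values were seen. Over all genes, DESeq2 called 505, 189 and 389 lower for the depots in the same order. The autophagy conjugation genes had medians of 0.07, 0.08 and 0.14 and the prenylation enzymes of 0.06, 0.05 and -0.03. Of these, 0 were called by edgeR and 0 by DESeq2, and at an unadjusted p below 0.05 there were 2, 3 and 3 autophagy genes, all higher, and 0 prenylation enzymes.

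Among the genes around the clusters, 1 was called by edgeR, on chromosome 5, and it was lower in C6KO. Of the 31 genes within 1 Mb of either cluster, 19 to 21 were tested in each depot. The only 1 called by edgeR was Spp1 (osteopontin) in BAT, where 1.07% of all 13595 genes were called lower. Spp1 lies 573100 bases from the cluster on chromosome 5. It was at 9.63 ± 4.83 CPM in WT and 1.37 ± 0.852 CPM in C6KO (SD, n = 3). Its log2 fold change was -2.81 (SE 0.522, edgeR adjusted p = 0.0417). The call was lost in 5 of the 6 fits that left out 1 library, each but that without WT-2, with adjusted p-values of 0.0598 to 0.172. Spp1 is made by macrophages, among other cells. At an unadjusted p below 0.05 there were 5 neighbours in each depot. Of these, 3 were higher and 2 lower in iWAT and in BAT, and 4 were higher and 1 lower in eWAT. DESeq2 called 1 more, Kyat3, higher in iWAT, where it called 169 of all genes higher. Kyat3, an aminotransferase gene 63040 bases from the cluster on chromosome 3, had log2 fold changes of 0.97 (SE 0.285), 0.72 (SE 0.218) and 0.61 (SE 0.195) for iWAT, eWAT and BAT, with edgeR adjusted p-values of 0.184, 0.124 and 0.201. It was named after its values were seen.

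The effect of the genotype was also compared between depots by interaction terms in 1 edgeR fit of all libraries, where 0% of 14175 genes were called for eWAT against iWAT, 0.212% for BAT against iWAT and 0.607% for BAT against eWAT. Of the interferon pathway, 0 of 62 genes were called in each of the 3 comparisons, with 1, 5 and 3 at an unadjusted p below 0.05. Of the further GTPases 0 of 8 were called, and of the neighbours 0 of 18. Among the GTPases 2, 0 and 3 and among the neighbours 3, 2 and 4 were at an unadjusted p below 0.05. DESeq2 was not run for these terms.

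The depots were compared for 8 paralogs, since the transcript counted for Gbp4 differed among the tables. Each depot has a table of its own, and depth differed between them. Libraries with the same number were not paired in the fit, although the labels do not exclude shared animals. The spread of each gene was estimated over all 18 libraries, so eWAT WT-2 enters the p-values of every depot comparison, those within C6KO included. With C6KO libraries only, edgeR called 1 paralog lower in eWAT than iWAT and 2 lower in BAT than iWAT. Between BAT and eWAT it then called 2 higher and 2 lower. The share of all genes called is not given here for that fit or for DESeq2 between depots. Nothing is therefore read from those counts. The shares below belong to the fit of all 18 libraries. In C6KO, Gbp8 was at 2.28 ± 1.68 CPM in eWAT and 0.288 ± 0.128 CPM in BAT, a log2 difference of -2.97 (SE 1.06, edgeR adjusted p = 0.0238), and it was the only 1 of the 8 called by edgeR between BAT and eWAT, where 23.6% of all genes were higher and 26.3% lower. The call was lost in 3 of the 6 fits that left out 1 library, those without eWAT C6KO-3, BAT C6KO-1 and BAT C6KO-2. Its counts were 24, 27 and 81 in eWAT and 2, 2 and 4 in BAT. Gbp3 was at 21.8 ± 2.53 CPM in eWAT and 45.1 ± 21.5 in BAT, which did not pass in edgeR (log2 difference 1.04, SE 0.448, adjusted p = 0.0586) and was called by DESeq2.

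Between eWAT and iWAT, 0 of 8 were called in C6KO, where 14.1% of all genes were higher and 10.6% lower, with 1, Gbp9, at an unadjusted p below 0.05 (log2 difference -0.64, edgeR adjusted p = 0.0522) and called by DESeq2. Between BAT and iWAT 0 of 8 were called in C6KO, where 18.2% of genes were higher and 20.3% lower, with 2, Gbp2 and Gbp8, at an unadjusted p below 0.05 (log2 differences -1.08 and -2.29, edgeR adjusted p = 0.0673 and 0.092) and called by DESeq2.

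In WT, the group of eWAT holds WT-2, a library the family was chosen on, so differences from WT eWAT are given as a description, without p-values, and nothing is read from the counts. Gbp8 met the call rule as higher in eWAT than in iWAT, 1 of 8 paralogs, where 12.9% of all genes were higher and 12.9% lower. Its log2 difference was 2.79 with WT-2 and 1.57 without it. Gbp2 was at 0.58 with and -0.59 without WT-2, and Gbp9 at -0.25 with and -0.63 without it.

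Between BAT and WT eWAT, Gbp2 and Gbp8 met the call rule as lower in BAT, 2 of 8, where 24.9% of genes were higher and 23.7% lower, and DESeq2 called Gbp5 as well, 3 in all. The log2 difference of Gbp2 was -1.51 with and -0.34 without WT-2, and that of Gbp8 -2.67 with and -1.46 without it. Between BAT and iWAT in WT, 0 of 8 were called by edgeR, 0 at an unadjusted p below 0.05 and 0 by DESeq2. There 20% of all genes were higher and 18.8% lower. These 2 groups do not hold WT-2, but the spread used in their test was estimated with it.

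The members were correlated across the 18 libraries, with each depot but not each genotype set to the same mean. The genotype difference of Gbp2b therefore enters its values. Pearson's r of Gbp2b with the 9 paralogs was between -0.17 and 0.53 (n = 18 libraries), with the lowest value for Gbp2. Without eWAT WT-2 the r of Gbp2b with Gbp2 was -0.63. The 36 pairs of paralogs had a median r of 0.76, and 0.42 without eWAT WT-2. These values are descriptions of the same libraries, which share their depth and genotype groups. They restate the pattern the family was chosen on, and nothing is read from them. Within WT, Gbp2b and all 9 paralogs lay above the mean of the other libraries of the group in eWAT WT-2 and in iWAT WT-2. The labels do not say whether these libraries came from the same animal, so they may not be separate observations.

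Of the 13131 genes that passed the filter in every depot, the 5 most like Gbp2b were Mir29c (r = 0.89), Mon1a (0.87), 4933406I18Rik (0.86), 2210408F21Rik (0.84) and Cyren (0.84), and the least like it were Ckap4 (-0.90), Gpr137b (-0.89) and Fam111a (-0.86). None of these 8 lies on chromosome 3. The log2 fold changes of the first 5 were 0.07 to 1.79, far below that of Gbp2b in iWAT and BAT. The 5 genes most like Gbp2 were Cxcl9 (r = 0.92), Iigp1 (0.91), Gm12250 (0.90), Mir5107 (0.89) and Calhm6 (0.89). Without eWAT WT-2 the r of Cxcl9 was 0.63 and that of Gm12250 0.89. These lists are not settled: computed without eWAT WT-2, or by Spearman's rho, 1 or 2 of the 5 genes most like Gbp2b and 1 of the 5 most like Gbp2 were again among the first 5.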

How the data were processed

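Poly(A) RNA was sequenced by the authors on a NextSeq, the reads were aligned with STAR (default settings) to mm10, and exonic reads were counted with HOMER for 1 transcript of each gene. The deposited values are raw counts, without normalization, for 25124 genes in a table for each depot. The counted transcript differed between tables for 2619 genes. Versions, annotation and strandedness are not given in the sources used here. Transcript stretches were compared in GENCODE vM21, which may differ from the annotation counted and does so in length for Gbp6.

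Genotypes were compared within each depot, and depots in a fit of all 6 groups, by edgeR 4.0.16 (limma 3.58.1, R 4.3.3; filterByExpr, TMM, robust quasi-likelihood). A call required an adjusted p (Benjamini-Hochberg, over every gene tested) below 0.05 with a change of 1.5-fold or more. The SE of a log2 fold change was worked back from the quasi-likelihood F statistic and was not estimated separately. The fits were run on simulated data with the same spread for every gene, no outlying library and no change in genes with few counts. That run does not cover a library such as eWAT WT-2 or members with few counts. Printed CPM were scaled by TMM over all 18 libraries. Single libraries were compared with the mean of the other 2 of their group on the log2(CPM + 1) scale, and folds there are ratios of CPM. Likeness was Pearson's r of log2 CPM centred in each depot. Alternatives were DESeq2 1.42.0, other scalings and filters, a replicate block and leaving out each library.

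The members and the gene lists were chosen with earlier results of these data known. By rule the text names all members, Casp6, the called genes of the pathway, GTPase and neighbour lists, Ifng, Irf1 and Cxcl9, and the genes most and least like Gbp2b and most like Gbp2. Another gene of this rule is not reported here.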

Additional observations from a re-analysis of the deposited data

Results flagged for a closer look

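Irf2, an inhibitor of interferon signalling, had all C6KO libraries above WT in iWAT (log2 fold change 0.351, 66.3 ± 3.12 against 52.2 ± 3.18 CPM, SD, n = 3) and all below WT in eWAT (-0.272, 62.2 ± 5.95 against 75.3 ± 8.91 CPM). The difference of the effects, eWAT minus iWAT, was -0.62 (SE 0.224, edgeR interaction, adjusted p = 0.895), so it did not pass the test. Irf2 was named after its values were seen.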

How the results depend on the processing

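No paired design was given by the labels: same-numbered WT and C6KO libraries of a depot had correlations of -0.602 to 0.168 in their deviations from the group means, 2 of 9 above 0.1, and same-numbered libraries of 2 depots -0.106 to 0.345, 6 of 18 above 0.1, so the numbers were not taken to pair the libraries. Between eWAT and iWAT of WT mice, every same-numbered correlation (0.0816 to 0.253) was above every other (-0.203 to 0.07), a hint from the data of shared animals there, and whether they were shared is not stated. Of 1961 recomputed values, 1749 kept their direction and their side of the threshold or moved little, 169 moved, 17 lost a call, 25 gained one and 1 reversed. The log2 fold change of Gbp2b stayed above 0 under every alternative, and nothing is read from its sign, which the family was chosen on. Without 1 library at a time it was 3.94 to 6.12 in iWAT and 0.61 to 5.45 in eWAT, and the median of the 9 paralogs in eWAT was -1.44 to 0.017, the last without WT-2. With the replicate block the value of Gbp2b in eWAT was 3.08. The reversed value was the WT difference of Gbp2 between eWAT and iWAT, -0.59 without eWAT WT-2 against 0.58, in a range of -0.59 to 0.96 over the libraries left out.

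Counts of called genes moved under many alternatives. Genes higher and lower in iWAT (1 and 3) became 169 and 505 with DESeq2, 6 and 26 without a filter, 8 and 54 with the replicate block, and 58 and 308 with all 18 libraries in 1 fit, while at least 10 counts in every library left 1 lower. In eWAT (80 and 31) they became 429 and 189 with DESeq2, 224 and 97 without a filter, 298 and 116 with the block, 1 and 3 with all libraries in 1 fit, and 39 higher with library totals alone. In BAT (23 and 145) they became 156 and 389 with DESeq2 and 95 and 430 with all libraries in 1 fit, and those higher became 47 without a filter, 36 with at least 10 counts and 12 with the block. Leaving out 1 library gave 0 to 327 higher and 3 to 951 lower in iWAT (most without C6KO-3), 0 to 254 and 2 to 93 in eWAT, and 2 to 33 and 24 to 145 in BAT. The causes were not tested.

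Pathway genes called lower (0 in each depot) became, with DESeq2, 3 in iWAT and BAT and 2 in eWAT, 1 and 2 in iWAT and BAT with all libraries in 1 fit, and in eWAT 2 with the block and 1 without a filter. Without 1 library they were 0 to 5 in iWAT, the 5 without C6KO-3, and 0 to 1 in eWAT. GTPases called lower became 1 with DESeq2 in iWAT and in eWAT, and 0 to 1 in iWAT without 1 library. Neighbours called higher in iWAT became 1 with DESeq2 and 0 to 2 without 1 library, those lower 0 to 1. The 1 lower in BAT became 0 with at least 10 counts in every library and 0 to 1 without 1 library. The pathway interaction of eWAT with iWAT had 0 to 1 calls without 1 library, the 1 without iWAT C6KO-3.

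Among the 8 paralogs, those higher in WT eWAT than iWAT (1) became 2 with DESeq2, 0 with WT libraries only and 0 to 2 without 1 library, and those lower (0) became 0 to 2. Those lower in WT BAT than eWAT (2) became 3 with DESeq2 (Gbp2, Gbp5 and Gbp8), 1 with WT libraries only and 0 to 4 without 1 library. In C6KO, those lower in eWAT than iWAT (0) became 1 with DESeq2, 1 with the block and 1 with C6KO libraries only. Those lower in BAT than iWAT (0) became 2, 1 and 2 in the same order. Those higher in BAT than eWAT (0) became 1, 1 and 2, and 0 to 1 without 1 library, and those lower (1) became 2 with C6KO libraries only and 0 to 1 without 1 library. The shares of all genes called between depots under these alternatives are not given here, and nothing is read from the counts. Of the 5 genes most like Gbp2b, 2 were shared by Spearman's rho and 1 without eWAT WT-2, and of the 5 most like Gbp2, 1 and 1. BAT libraries are the shallowest, and 2 members, Gbp8 and Gbp10, did not pass the filter there.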
